A study of Homo sapiens with 6 samples.

Results

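The transcripts of F-box genes were measured by poly(A) RNA-seq in A2780, a long-established line of ovarian cancer cells. Cells exposed to SCR-6920 (1 µM, 48 h) gave 3 samples and DMSO control cells gave 3. SCR-6920 inhibits PRMT5, an arginine methyltransferase that places symmetric dimethyl marks, according to the series title. Both groups are labelled WT in genotype and come from this single line in culture. Whether the 3 replicates of a group were separate cultures is not stated, and p-values therefore measure the spread between these samples, which may be technical. The 60 members are the protein-coding genes of the deposited table whose symbol is FBXW, FBXL or FBXO followed by a number, out of 24054 genes in all, of which 16881 are protein coding. They comprise 8 FBXW, 17 FBXL and 35 FBXO genes, and the choice of this family was made with earlier results of these data known.

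F-box proteins are the exchangeable substrate receptors of the SCF ubiquitin ligases, in which the scaffold cullin CUL1 holds the ring protein RBX1 at one end and the adaptor SKP1 at the other. The F-box motif binds SKP1, and the rest of the protein recruits the target: WD40 repeats in the FBXW class, leucine-rich repeats in the FBXL class and other or no known domains in the FBXO class. Targets include cell cycle regulators, signalling proteins and the iron regulatory protein IREB2, and some members work outside SCF ligases. A transcript level says nothing of a receptor's protein level or of the ligase's activity.

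Libraries were sequenced to 38149448 to 39749993 counts per sample. PRMT5 mRNA lay between 78.3 and 83.6 FPKM (fragments scaled to gene length and library size) in the 6 samples. Of the markers examined for an ovarian carcinoma and its epithelium, PAX8, MUC16, WFDC2 and MSLN were at most at 0.184 FPKM and KRT7 at 0. EPCAM reached at most 0.636 FPKM and FOLR1 lay between 0.775 and 1.325 FPKM, while the epithelial keratins KRT8 and KRT18 reached at most 1.62 and 2.66 FPKM. The mesenchymal genes VIM and CDH2 were at least at 1273 and 26.4 FPKM. The leukocyte gene PTPRC had no count in any sample and the endothelial gene PECAM1 at most 1.

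Promoter sequences of 4 members that changed are shown here because the CCAAT box, the letters bound by the factor NF-Y, stood before a larger share of the members that fell than of those that rose. CCAAT was picked from several sets of letters that were searched, and these 4 members were chosen, after the values were seen. RefSeq promoter windows (GRCh38.p14) were at hand for 47 of the 60 members, and the 250 bases upstream of each annotated start were searched on both strands. CCAAT was found for 16 of these members, or 34.0%, against 37.0% of 27305 genes with a window. It was present in 4 of the 8 members with a window that fell (FBXO5, FBXO45, FBXO46 and FBXW5) and in 1 of the 13 that rose (FBXO11), a description that was given no test. The letters TTTGAA, the core of the cell cycle genes homology region (CHR), were found for 3 members, or 6.38%, against 16.1% of all genes: FBXO11 and FBXO17, which rose, and FBXO5, which fell. The FBXO11 matches lay at another annotated start than the one printed here. Each sequence below runs over the 150 bases up to an annotated start, 5′ to 3′ on the gene's strand, with CCAAT and TTTGAA matches on either strand in capitals.
FBXO5, which fell, minus strand, chr6:152983042-152983191: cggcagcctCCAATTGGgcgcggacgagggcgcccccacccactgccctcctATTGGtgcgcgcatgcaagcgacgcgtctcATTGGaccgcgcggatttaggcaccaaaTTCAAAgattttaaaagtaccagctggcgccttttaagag
FBXW5, which fell, minus strand, chr9:136944739-136944888: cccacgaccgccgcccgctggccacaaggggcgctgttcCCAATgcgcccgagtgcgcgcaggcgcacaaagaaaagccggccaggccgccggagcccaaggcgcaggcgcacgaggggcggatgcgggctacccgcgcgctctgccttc
FBXO11, which rose, minus strand, chr2:47906499-47906648: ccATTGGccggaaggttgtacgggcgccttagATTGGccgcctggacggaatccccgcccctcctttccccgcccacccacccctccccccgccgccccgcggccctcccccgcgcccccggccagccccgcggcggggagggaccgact
FBXO10, which rose, minus strand, chr9:37576381-37576530: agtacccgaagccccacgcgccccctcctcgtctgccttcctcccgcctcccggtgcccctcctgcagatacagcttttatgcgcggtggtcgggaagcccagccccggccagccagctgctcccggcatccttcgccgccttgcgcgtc

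The FBXO5 window belongs to the second of its annotated starts and held 5 matches, 2 of them the overlapping CCAAT letters on the 2 strands of CCAATTGG. The match nearest the start was the CHR core, whose first base lay 40 bases upstream. FBXO10 held neither set of letters. The E2F letters TTTGGCGC or TTTCGCGC were found for 1 member, FBXO9, and a p53 half-site for FBXO9 and FBXW11, or 2.13% and 4.26% of members, against 1.198% and 6.80% of all genes. The 64 member windows had a median GC content of 67.3%, against 58.7% over all 35116 windows. The shares of all genes and this GC median were not limited to protein-coding or expressed genes. All members are protein coding, so the sets compared are unlike. A match is a set of letters and not a measured binding site.

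Most F-box genes were expressed at low to moderate levels. By the mean FPKM of the DMSO samples, 12 members reached 10 FPKM, 40 reached 1 FPKM and 11 lay under 0.1 FPKM. The median of the members that passed the low-count filter was 4.24 FPKM, against 6.85 FPKM for the 12610 protein-coding genes that passed it. FBXO7, a receptor linked to parkin-dependent mitophagy and to inherited parkinsonism, stood highest in both groups, with 57.2 ± 1.25 FPKM in SCR-6920 samples and 53.1 ± 1.71 FPKM in DMSO samples (SD, n = 3 each). In SCR-6920 samples it was followed by FBXO17 (30.6 ± 0.476 FPKM), FBXO2 (22.7 ± 1.76), FBXW11 (21.6 ± 0.670) and FBXL19 (20.5 ± 0.867). In DMSO samples the order was FBXL19 (27.7 ± 1.24 FPKM), FBXW5 (27.2 ± 1.67), FBXO17 (25.5 ± 0.843) and FBXO2 (21.1 ± 1.67). FBXO2 and FBXW11, and FBXW11 and FBXL19, differed by less than the sum of their SDs in SCR-6920 samples, as did FBXL19 and FBXW5, and FBXW5 and FBXO17, in DMSO samples.

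Of the 60 members, 52 passed the low-count filter and 8 did not. FBXL22, FBXO47 and FBXW10 had no count in any sample, a count that is uncertain for FBXW10 because it has near-identical copies. FBXW12 and the muscle receptor gene FBXO40 had at most 1 count per sample. FBXO32, known as atrogin-1 for its part in muscle wasting, had 0, 0 and 0 counts in the SCR-6920 samples and 0, 2 and 13 counts in the DMSO samples, so its DMSO value rested mainly on replicate 3. FBXO6, a receptor of N-glycosylated proteins, had 2, 1 and 2 counts in the SCR-6920 samples and 5, 9 and 5 counts in the DMSO samples, and FBXL16 had 5 to 9 counts in the SCR-6920 samples and 5 to 23 counts in the DMSO samples. These genes were not tested. Of the 52 that were, 51 exceeded the filter's count level in all 6 samples, FBXL13 being the exception.

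Some F-box genes were higher and others lower in SCR-6920 samples. In edgeR's quasi-likelihood test, 25 of the 52 tested members had a Benjamini-Hochberg adjusted p below 0.05, of which 14 rose and 11 fell. That share of 48.1% stood beside 42% of all 14233 tested genes, and the shares by direction were 26.9% higher and 21.2% lower, beside 20.6% and 21.3% of all tested genes. The count of members that fell was 7 without SCR-6920 replicate 1. The median log2 change of the members was 0.01, against -0.00 for all tested genes, and their median absolute log2 change was 0.20, against 0.19. Of the members that changed, 3 did so by 1.5-fold or more, FBXO36, FBXO44 and FBXO43, or 5.77%, beside 7.81% of all tested genes. The groups did not overlap for 34 of the 52, or 65.4%, beside 50.6% of all tested genes. The summed level of the 60 members was taken in CPM, counts scaled to library size multiplied by a normalization factor (TMM). It was 1711, 1695 and 1708 in the SCR-6920 samples and 1706, 1679 and 1691 in the DMSO samples, and the groups overlapped.

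**Figure D1:**
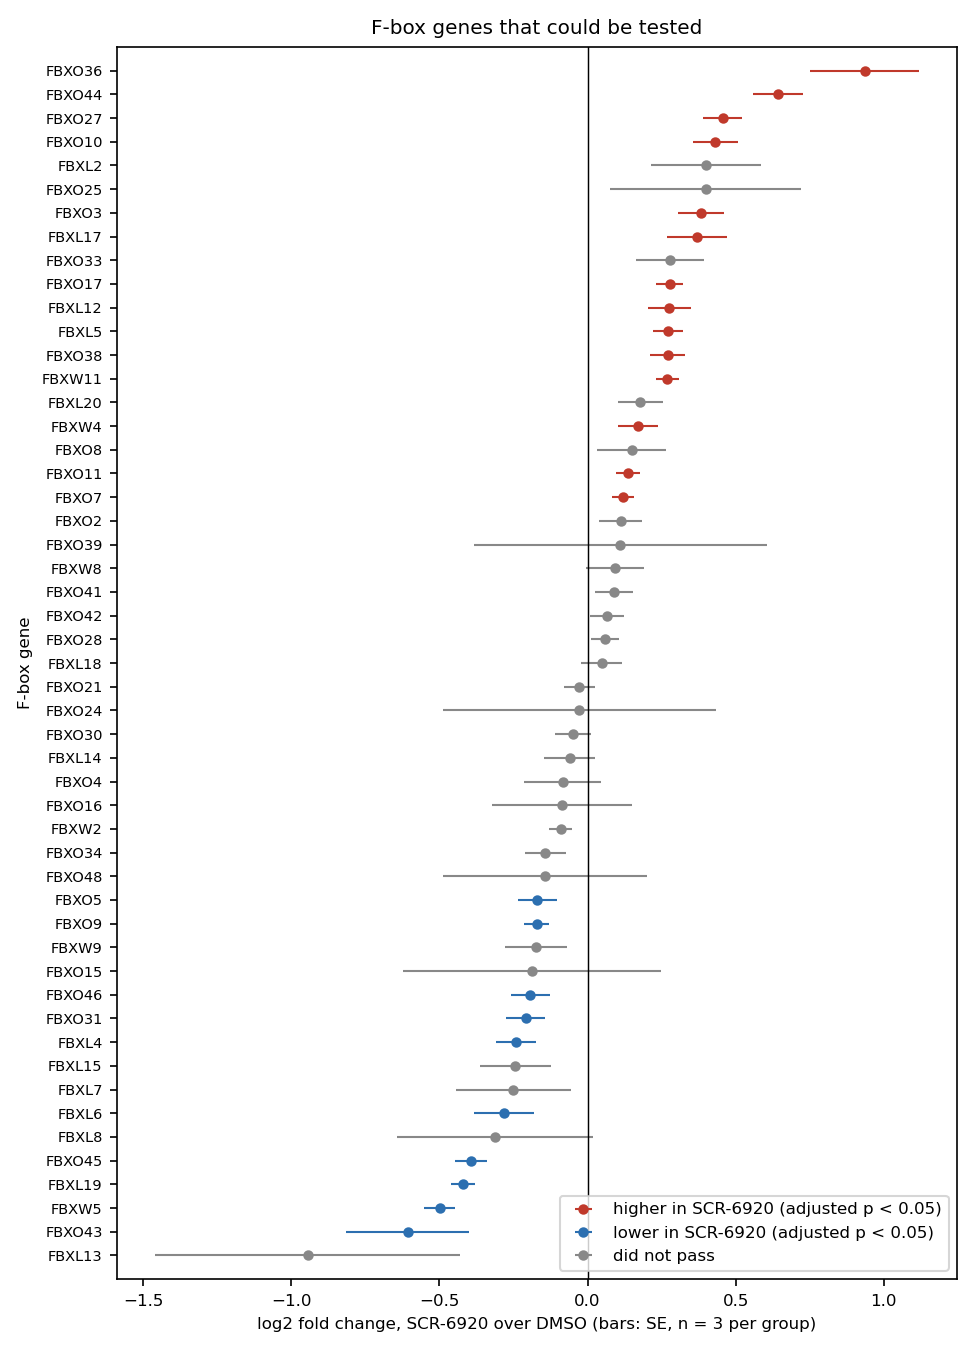
Log2 fold change of SCR-6920 over DMSO for 51 of the 52 tested F-box genes, with SE bars (n = 3 per group), ordered by size. The 14 members that rose are red, 10 of the 11 that fell blue and the 27 that did not pass grey, and changes run from -0.94 for FBXL13, which did not pass, to 0.94 for FBXO36.

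By class, 2 of 6 tested FBXW genes rose and 1 fell, 3 of 15 FBXL genes rose and 4 fell, and 9 of 31 FBXO genes rose and 6 fell. The shares that changed were 50%, 46.7% and 48.4%, each near the 42% of all tested genes. The median log2 change was 0.00 for FBXW, -0.24 for FBXL and 0.07 for FBXO genes. The FBXL median included 8 members that did not pass, FBXL13 with 7 to 27 counts per sample among them.

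FBXO2, FBXO6, FBXO17, FBXO27 and FBXO44 were grouped here as related to receptors of N-glycosylated proteins. Such receptors recognise sugar chains on misfolded or displaced glycoproteins, but not every member of the group is established as binding them. Of the 4 that could be tested, 3 rose, beside 20.6% of all tested genes that rose, and 4 genes are too few to read a share from. FBXO44 had 26.0, 23.7 and 23.6 CPM in the SCR-6920 samples, against 17.2, 13.9 and 15.8 CPM in the DMSO samples. The groups were well apart, and the gene rose 1.56-fold (log2 0.64 ± 0.08 SE, n = 3 per group, adjusted p = 1.99e-07). FBXO27 had 36.2, 33.7 and 38.1 CPM in the SCR-6920 samples, against 26.9, 25.6 and 26.3 CPM in the DMSO samples. Its lowest treated sample lay above its highest DMSO sample, and it rose 1.37-fold (log2 0.46 ± 0.07 SE, adjusted p = 1.07e-06). FBXO17 had 71.2, 71.4 and 72.8 CPM in the SCR-6920 samples, against 59.5, 57.2 and 61.1 CPM in the DMSO samples, a rise of 1.21-fold without overlap (log2 0.28 ± 0.05 SE, adjusted p = 9.97e-06). FBXO2 did not pass, with 29.6, 26.9 and 31.3 CPM in the SCR-6920 samples and 26.9, 25.1 and 29.3 CPM in the DMSO samples, which overlapped (log2 0.11 ± 0.07 SE, adjusted p = 0.233). In the RefSeq gene order (GRCh38.p14), FBXO2, FBXO44 and FBXO6 are consecutive protein-coding genes, as are FBXO17 and FBXO27. Exons of FBXO2 and FBXO44 overlap on opposite strands in GENCODE 29, so reads of the overlap cannot be told apart if the counting, for which the sources used here give no strand setting, ignored strand.

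Among the other members that rose, FBXO36 had the largest change of any that passed. It had 4.25, 5.15 and 4.96 CPM in the SCR-6920 samples, against 2.32, 2.42 and 2.76 CPM in the DMSO samples. The treated values were all above the DMSO values, and the gene rose 1.91-fold (log2 0.94 ± 0.18 SE, adjusted p = 9.3e-05) from a low level of 92 to 198 counts per sample. FBXO10, a receptor of the antiapoptotic protein BCL2, had 23.6, 25.4 and 25.3 CPM in the SCR-6920 samples, against 18.2, 17.7 and 19.2 CPM in the DMSO samples. It rose 1.35-fold without overlap (log2 0.43 ± 0.08 SE, adjusted p = 2.35e-05). FBXO3, a receptor that targets another F-box protein, FBXL2, had 24.1, 24.3 and 24.9 CPM in the SCR-6920 samples, against 20.2, 18.00 and 18.03 CPM in the DMSO samples. It rose 1.30-fold (log2 0.38 ± 0.08 SE, adjusted p = 0.000131), with the DMSO samples more spread than the treated ones.

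FBXL17, which targets the haem-binding repressor BACH1 and mismatched BTB-domain dimers, had 19.6, 17.8 and 17.3 CPM in the SCR-6920 samples, against 15.2, 15.5 and 11.6 CPM in the DMSO samples. DMSO replicate 3 was the lowest of the 6, and the gene rose 1.29-fold (log2 0.37 ± 0.10 SE, adjusted p = 0.00347). Its call was lost by limma on log2(FPKM + 1), with adjusted p-values of 0.116 to 0.139 over the pseudocount and filter settings. FBXL12, reported as a receptor of the CDK inhibitor p21, had 31.3, 27.2 and 27.6 CPM in the SCR-6920 samples, against 22.6, 24.6 and 24.0 CPM in the DMSO samples. The groups did not overlap, and the rise was 1.21-fold (log2 0.28 ± 0.07 SE, adjusted p = 0.00254). FBXL5, the iron-sensing receptor that targets IREB2, had 55.0, 57.7 and 57.2 CPM in the SCR-6920 samples, against 46.5, 47.3 and 46.9 CPM in the DMSO samples. Both groups were tight around their means, and the rise was 1.21-fold (log2 0.27 ± 0.05 SE, adjusted p = 4.28e-05).

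**Figure D2:**
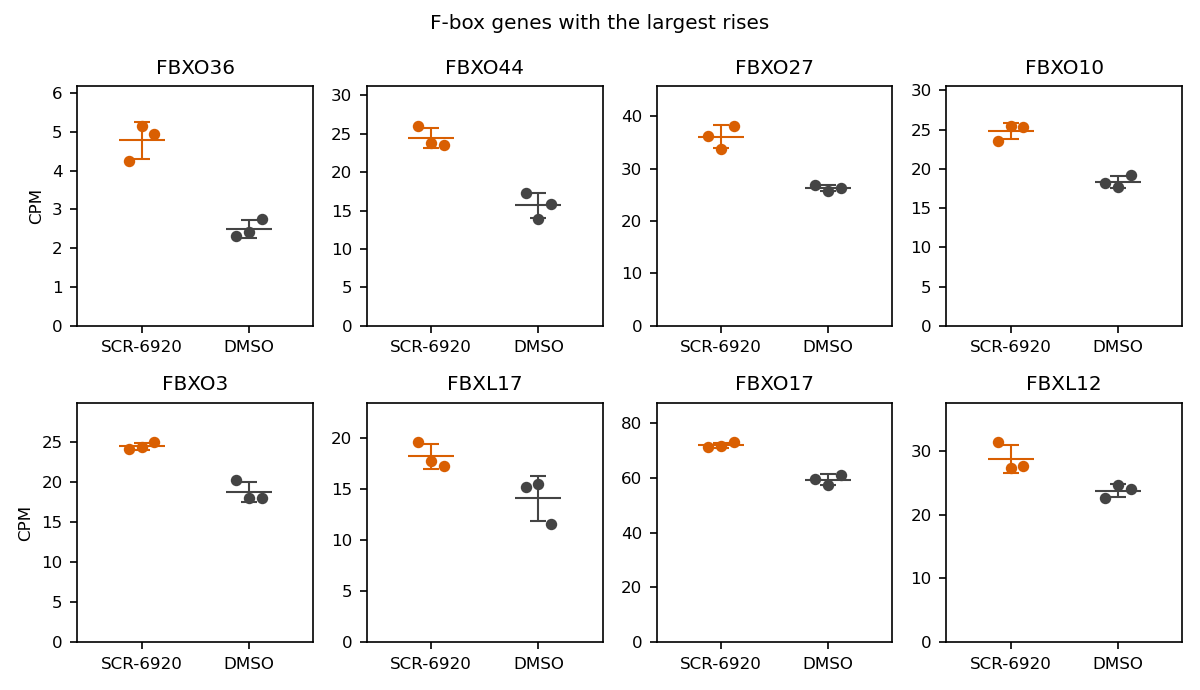
CPM in each sample (points) with the group mean and SD (bars, n = 3) for the 8 members with the largest rises that passed without overlap of the groups, SCR-6920 left and DMSO right in each panel. All treated points lie above all DMSO points in every panel, from 4.25 CPM and above against at most 2.76 CPM for FBXO36 to 71.2 CPM and above against at most 61.1 CPM for FBXO17.

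FBXW11, one of the β-TrCP receptors that act on phosphorylated β-catenin and the NF-κB inhibitor IκB, had 112, 105 and 109 CPM in the SCR-6920 samples, against 90.5, 89.0 and 91.4 CPM in the DMSO samples. It rose 1.21-fold without overlap (log2 0.27 ± 0.04 SE, adjusted p = 1.36e-06). Its paralogue BTRC, the other β-TrCP gene, had 44.3 ± 2.60 CPM in SCR-6920 samples and 43.8 ± 3.30 CPM in DMSO samples (SD, n = 3 each) and did not pass (log2 0.02 ± 0.06 SE, adjusted p = 0.857); the difference between the paralogues was not tested. FBXO38, reported to act on the immune receptor PD-1, rose by 0.27 ± 0.06 on the log2 scale (SE, adjusted p = 0.000292). FBXO11, whose targets include the repressor BCL6, had 105, 102 and 103 CPM in the SCR-6920 samples, against 97.6, 92.6 and 91.5 CPM in the DMSO samples. The groups did not overlap, and the rise was small at 1.10-fold (log2 0.14 ± 0.04 SE, adjusted p = 0.00641).

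FBXO7 and FBXW4 also rose, by 0.12 ± 0.04 and 0.17 ± 0.07 on the log2 scale (SE, adjusted p of 0.00885 and 0.038). The FBXO7 call was lost without SCR-6920 replicate 2 (adjusted p = 0.0746) or DMSO replicate 3 (0.0602). The FBXW4 call was lost without any single sample other than DMSO replicate 2, with adjusted p-values of 0.0925, 0.0753 and 0.0851 without SCR-6920 replicates 1, 2 and 3 and of 0.118 and 0.072 without DMSO replicates 1 and 3. It was also lost by DESeq2 (0.0525) and with library-size scaling (0.0536).

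The members that fell were led in size by FBXO43, known as EMI2, an inhibitor of the anaphase-promoting complex (APC/C) best known from egg maturation. It had 2.20, 1.95 and 2.91 CPM in the SCR-6920 samples, against 4.04, 3.57 and 3.16 CPM in the DMSO samples. The groups did not overlap, and the gene fell to 0.656-fold (log2 -0.61 ± 0.21 SE, adjusted p = 0.0186). Its level was low, at 75 to 160 counts per sample, and the call was lost without SCR-6920 replicate 1 (adjusted p = 0.0623), SCR-6920 replicate 2 (0.0966) or DMSO replicate 1 (0.0856). FBXO5, known as EMI1, the somatic APC/C inhibitor that holds the complex off until mitosis, had 26.1, 25.7 and 26.4 CPM in the SCR-6920 samples, against 29.8, 29.4 and 28.8 CPM in the DMSO samples. It fell to 0.889-fold without overlap (log2 -0.17 ± 0.07 SE, adjusted p = 0.0407). No single sample except DMSO replicate 3 could be removed without losing this call: the adjusted p was 0.075, 0.0936 and 0.0678 without SCR-6920 replicates 1, 2 and 3 and 0.0896 and 0.0859 without DMSO replicates 1 and 2. By DESeq2 the adjusted p was 0.0601, and without the low-count filter 0.0749. The promoter of FBXO5 printed above holds both CCAAT and the CHR core.

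FBXW5, a receptor reported to limit centriole duplication through SASS6, had 47.5, 47.3 and 45.0 CPM in the SCR-6920 samples, against 62.5, 64.5 and 70.4 CPM in the DMSO samples. The groups were far apart, and the gene fell to 0.708-fold (log2 -0.50 ± 0.05 SE, adjusted p = 2.32e-09). FBXL19, a protein with a CXXC zinc finger that binds unmethylated CpG islands, had 101, 101 and 108 CPM in the SCR-6920 samples, against 130.4, 142 and 141 CPM in the DMSO samples. It fell to 0.748-fold without overlap (log2 -0.42 ± 0.04 SE, adjusted p = 3.42e-10), the smallest adjusted p of any member. FBXO45, which works with the ligase MYCBP2 rather than with CUL1, had 40.6, 38.6 and 43.2 CPM in the SCR-6920 samples, against 54.9, 54.5 and 51.6 CPM in the DMSO samples. It fell to 0.761-fold (log2 -0.39 ± 0.06 SE, adjusted p = 6.57e-07), again without overlap.

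FBXL4, a mitochondrial receptor that restrains mitophagy, had 30.1, 28.4 and 27.3 CPM in the SCR-6920 samples, against 35.4, 34.3 and 31.7 CPM in the DMSO samples, and fell to 0.846-fold without overlap (log2 -0.24 ± 0.07 SE, adjusted p = 0.00382). By limma on log2(FPKM + 1) without a filter the FBXL4 call was lost (adjusted p = 0.0578), as were those of FBXO43 (0.0626), FBXO46 (0.0964), FBXO7 (0.0514) and, among partners, UBA3 (0.0562) and BACH1 (0.125). FBXL6 had 10.95, 9.91 and 11.8 CPM in the SCR-6920 samples, against 13.1, 13.5 and 13.1 CPM in the DMSO samples. It fell to 0.822-fold (log2 -0.28 ± 0.10 SE, adjusted p = 0.026), a call lost without SCR-6920 replicate 1 (adjusted p = 0.0532), SCR-6920 replicate 2 (0.124) or DMSO replicate 2 (0.0737).

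FBXO31, which targets cyclin D1 and other cell cycle proteins after DNA damage, had 26.3, 26.0 and 26.0 CPM in the SCR-6920 samples, against 30.2, 30.0 and 30.3 CPM in the DMSO samples. The values hardly varied within a group, and the gene fell to 0.866-fold (log2 -0.21 ± 0.07 SE, adjusted p = 0.0109). FBXO46, reported as a receptor of FBXO31 itself, fell by 0.19 ± 0.07 on the log2 scale (SE, adjusted p = 0.0182) and was the member with overlapping groups among the 25 that changed. Its call was lost without SCR-6920 replicate 1 (adjusted p = 0.0611), SCR-6920 replicate 2 (0.114) or DMSO replicate 3 (0.0802). FBXO9, an F-box partner of the mTOR pathway, fell to 0.888-fold (log2 -0.17 ± 0.04 SE, adjusted p = 0.0014).

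**Figure D3:**
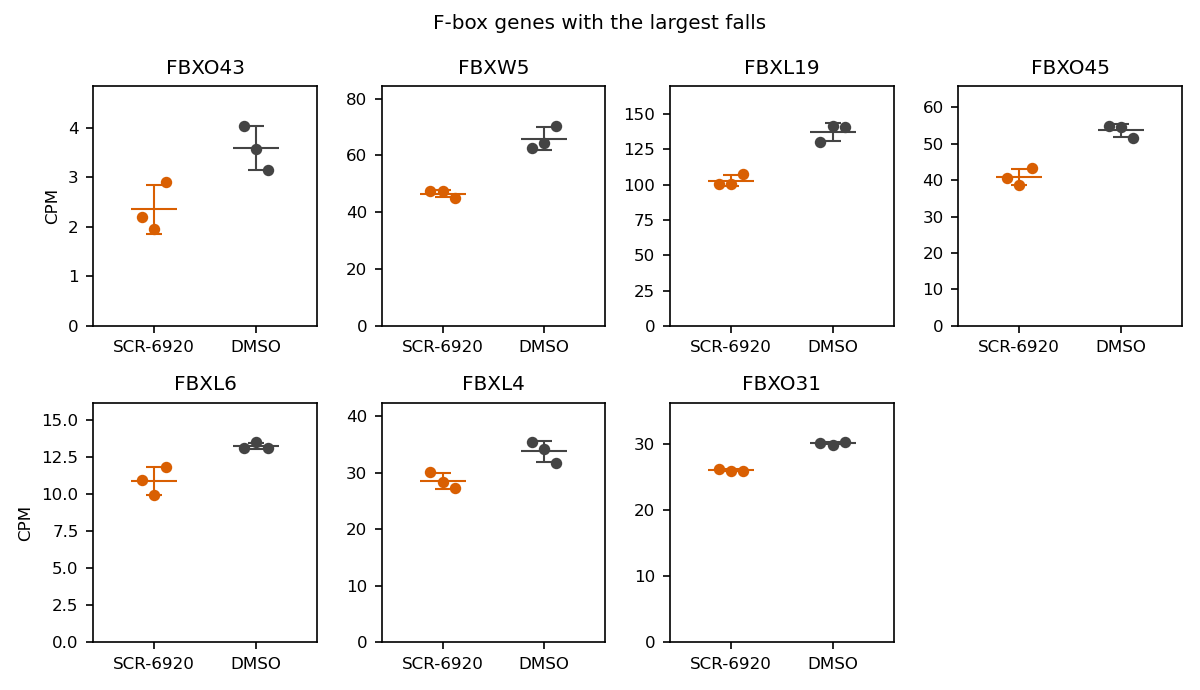
CPM in each sample (points) with the group mean and SD (bars, n = 3) for 7 of the 8 members with the largest falls that passed without overlap of the groups, SCR-6920 left and DMSO right in each panel. The treated points lie below the DMSO points in every panel, with FBXO43 at most at 2.91 CPM against at least 3.16 CPM and FBXW5 further apart (at most 47.5 CPM against at least 62.5 CPM).

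Of the 27 members that did not pass, 10 had groups without overlap. The matching share of all genes that did not pass was not computed, so this count stands without a background. Some had counts too low for a precise estimate: 12 members had an SE above 0.15 on the log2 scale, and 2 of these passed, against 23 of the 40 with an SE up to 0.15. FBXL13 had a log2 change of -0.94 ± 0.51 (SE, adjusted p = 0.145), with 0.183, 0.338 and 0.393 CPM in the SCR-6920 samples and 0.682, 0.612 and 0.476 CPM in the DMSO samples. FBXL2 (0.40 ± 0.18, adjusted p = 0.0827) and FBXO25 (0.40 ± 0.32, adjusted p = 0.342) were likewise imprecise. Others had smaller SEs and lay close to 0, such as FBXO21 at -0.03 ± 0.05, FBXL18 at 0.05 ± 0.07 and FBXO30 at -0.05 ± 0.06 on the log2 scale. FBXO28 had 103, 103 and 100.1 CPM in the SCR-6920 samples and 107, 94.4 and 91.7 CPM in the DMSO samples, with DMSO replicate 1 the highest of all. It did not pass with all samples (log2 0.06 ± 0.05 SE, adjusted p = 0.342) and passed without that replicate (log2 0.13, adjusted p = 0.0073). FBXO33, FBXL20 and FBXW2 lay near the threshold, with adjusted p-values of 0.0513, 0.0583 and 0.0623 and log2 changes of 0.28, 0.18 and -0.09. FBXL15, a receptor of the ligase SMURF1, had a log2 change of -0.24 ± 0.12 without overlap of the groups (SE, adjusted p = 0.103). Besides FBXO28, a call was gained under some alternative settings by FBXO33, FBXL20, FBXW2, FBXL2, FBXL15 and FBXW9. FBXL2 and FBXL20 each gained it in 2 fits with a single replicate left out, and FBXO33 in 4 other settings.

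**Figure D4:**
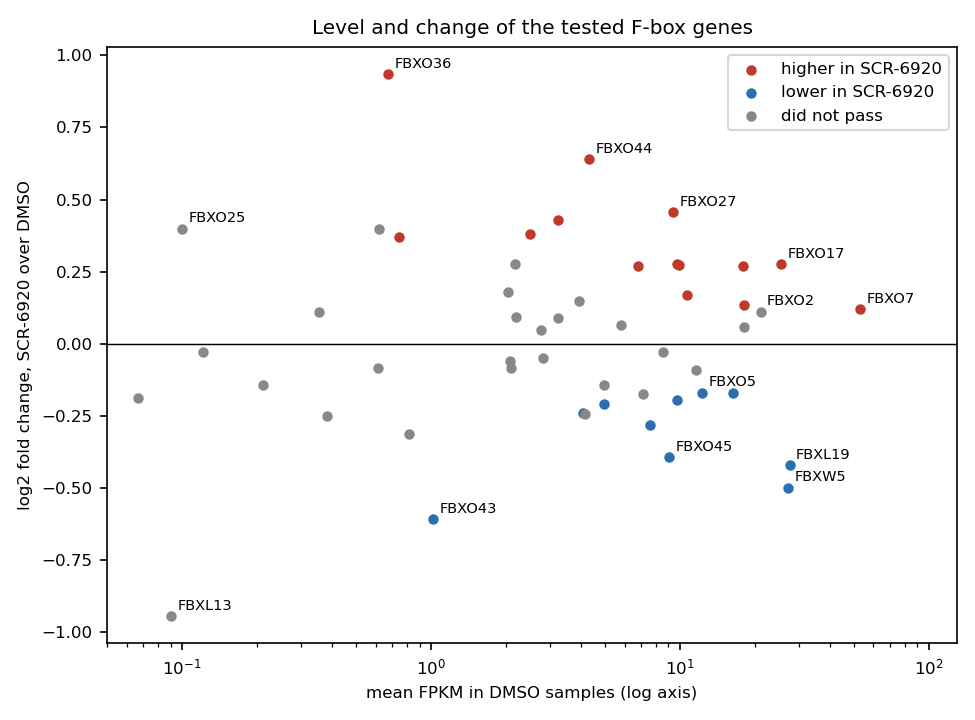
Mean FPKM of the DMSO samples (log axis) against the log2 fold change of SCR-6920 over DMSO for 51 of the 52 tested members, coloured by call. FBXO7, at the highest level of 53.1 FPKM, changed by 0.12, FBXL19 and FBXW5 fell at 27.7 and 27.2 FPKM, and FBXO36, at 0.672 FPKM, had the largest rise.

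The genes of F-box proteins under other symbols included 3 of 9 tested that changed, or 33.3%, beside 42% of all tested genes. SKP2, the receptor of the CDK inhibitor p27, had 99.4, 100.1 and 93.7 CPM in the SCR-6920 samples, against 133, 134 and 130.4 CPM in the DMSO samples. The groups were far apart, and SKP2 fell by 0.44 ± 0.04 on the log2 scale (SE, adjusted p = 4.26e-11). CCNF, the cyclin that serves as an F-box receptor late in the cell cycle, fell by 0.29 ± 0.05 (adjusted p = 4.96e-06), and KDM2A, a histone demethylase with an F-box, rose by 0.25 ± 0.03 (adjusted p = 4.22e-07).

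The SCF core itself went both ways. Of 11 genes of the core and its assembly, 4 rose and 2 fell, or 54.5%, beside 42% of all tested genes, with a median log2 change of 0.02. SKP1, the adaptor that every SCF receptor binds, had 282, 285 and 282 CPM in the SCR-6920 samples, against 244, 248 and 241 CPM in the DMSO samples. That was a rise without overlap of 0.21 ± 0.03 on the log2 scale (SE, adjusted p = 3.25e-07). RBX1, the ring subunit, rose by 0.21 ± 0.05 (adjusted p = 0.000397), and CUL1, the scaffold, fell by 0.09 ± 0.03 (adjusted p = 0.0355). The CUL1 call was lost without SCR-6920 replicate 2 or 3 (adjusted p of 0.0895 and 0.142) or DMSO replicate 2 or 3 (0.157 and 0.0784), which left 1 core gene lower, and also by DESeq2 (0.0536) and without the low-count filter (0.0717). CAND2, a receptor exchange factor, fell by 0.65 ± 0.09 (adjusted p = 1.89e-07), whereas its more abundant paralogue CAND1 had 404 ± 8.13 CPM in SCR-6920 samples and 402 ± 15.9 CPM in DMSO samples (SD, n = 3 each) and did not pass (adjusted p = 0.868).

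Cullins need the ubiquitin-like protein NEDD8 to be active, and the COP9 signalosome removes it. Of 12 genes of neddylation, 3 rose and 1 fell, or 33.3%, beside 42% of all tested genes. The 2 subunits of the NEDD8-activating enzyme moved in opposite directions, with UBA3 up by 0.23 ± 0.05 and NAE1 down by 0.23 ± 0.04 on the log2 scale (SE, adjusted p of 0.000361 and 1.01e-05). DCUN1D2, a cofactor of cullin neddylation, rose by 0.34 ± 0.07. Of the 9 COP9 genes, 4 rose and 3 fell, or 77.8%, beside the same 42%. That 42% covers tested genes at every level, and 9 genes are too few to read a share from. COPS8 rose by 0.29 ± 0.05 and COPS3 by 0.14 ± 0.04, while COPS6 and GPS1 both fell by 0.33 ± 0.04 (SE, n = 3 per group). COPS5, the catalytic subunit, had a log2 change of -0.07 ± 0.05 and did not pass (adjusted p = 0.213).

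Of 18 genes of the APC/C, the ligase that FBXO5 and FBXO43 inhibit, 7 fell and 2 rose, or 50%, beside 42% of all tested genes. The subunit genes ANAPC7 and ANAPC16 fell by 0.34 ± 0.04 and 0.32 ± 0.04 on the log2 scale, and CDC16 and CDC23 both rose by 0.18 ± 0.04 (SE). The activator genes CDC20 and FZR1 fell by 0.13 ± 0.04 and 0.19 ± 0.06 (adjusted p of 0.0025 and 0.00887).

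Of 22 genes whose proteins are reported targets or partners of members, 6 rose and 8 fell, or 63.6%, beside 42% of all tested genes. CDKN1A, which encodes p21, had the largest rise of the 22, 1.67 ± 0.03 on the log2 scale, beside the rise of its reported receptor FBXL12. IREB2 rose by 0.34 ± 0.04 (adjusted p = 3.4e-09) beside the rise of its receptor FBXL5. CCND1, the gene of cyclin D1, rose by 0.28 ± 0.03 (adjusted p = 9.62e-10) beside the fall of FBXO31.

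TELO2 and TTI1, partners that stabilise mTOR and related kinases and are reported targets of FBXO9, fell together with it. TELO2 had 35.4, 35.1 and 35.6 CPM in the SCR-6920 samples, against 58.7, 58.5 and 61.7 CPM in the DMSO samples, a fall of 0.75 ± 0.05 on the log2 scale without overlap (SE, adjusted p = 2.8e-13). TTI1 fell by 0.31 ± 0.05 (adjusted p = 1.3e-06). BACH1 fell by 0.17 ± 0.06 (adjusted p = 0.012) beside the rise of FBXL17, a call lost without SCR-6920 replicate 3 (0.0681) or DMSO replicate 1 (0.143). BCL2 had a log2 change of -0.08 ± 0.13 and did not pass (adjusted p = 0.683), beside the rise of FBXO10, and AURKB and TOP2A fell by 0.70 ± 0.05 and 0.51 ± 0.03. These are transcript levels of receptors and targets in the same samples, and a link between any pair was not tested.

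**Figure D5:**
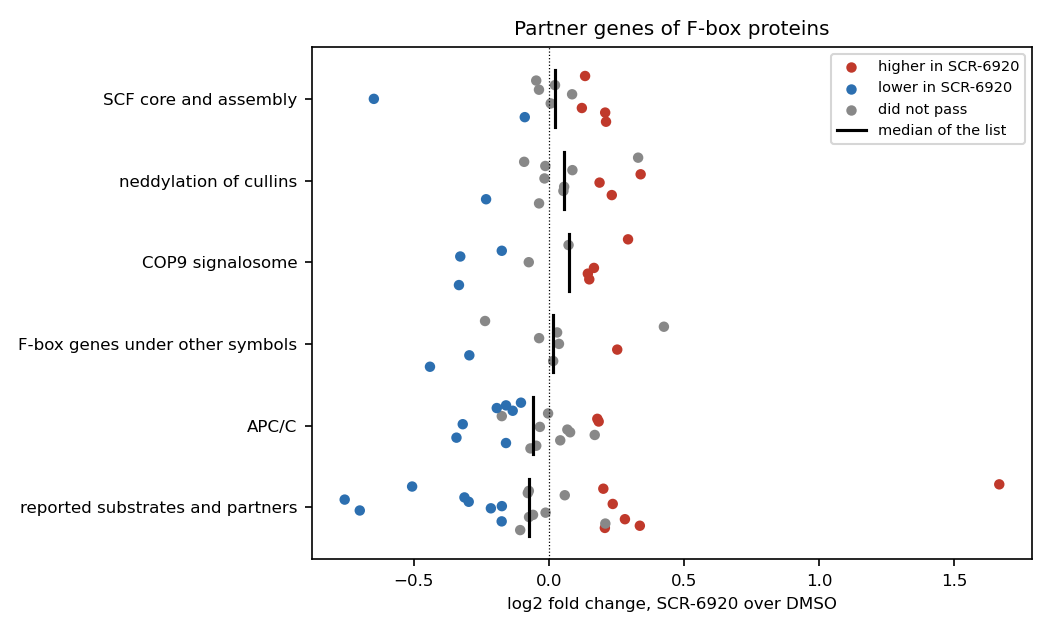
Log2 fold change of SCR-6920 over DMSO for the genes of 6 lists of F-box partners, 1 point per tested gene coloured by call, with the list's median as a black line. Every list holds genes that rose and genes that fell, and CDKN1A at 1.67 and TELO2 at -0.75 are the ends of the range.

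Annotation limits some of these values. In GENCODE 29, 26 of the 60 members, and 10 of the 25 that changed, have an exon overlapped by an exon of another gene on the opposite strand, among them FBXO45 by WDR53. If the counting ignored strand, the counts of those members are uncertain. A further overlap, on the same strand, was found for 7 of the members that changed, FBXL19 and FBXO17 among them, and strand does not separate such reads. In the deposited annotation, 38 of the 60 members carry the term for the SCF ubiquitin ligase complex. FBXW5, FBXL19 and FBXO45 carry it, and the APC/C inhibitor genes FBXO5 and FBXO43 do not.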

How the data were processed

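Reads were aligned with HISAT2 and counted with HTSeq, per the submitters' processing notes, which name the build GRCm38, a mouse build, although the deposited table holds human genes. No coordinates were taken from the deposited tables for that reason. The authors deposited raw counts per gene, and an FPKM table for the same 6 samples. Libraries came from a stranded mRNA kit, per the labels' protocols. The counts were fitted with edgeR 4.0.16 in R 4.3.3 (filterByExpr with a count minimum of 10, TMM factors, robust quasi-likelihood test, SCR-6920 over DMSO, n = 3 each). The p-values were adjusted by Benjamini-Hochberg over all 14233 genes that passed, and the adjusted p threshold was 0.05. The common biological coefficient of variation was 0.0556. SE is the standard error of a log2 fold change. The fit was also run on simulated counts, with known changes in a small part of the genes and a spread common to all genes. These data differ in both respects, and no result above rests on that run.

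Alternatives were RLE or library-size scaling, no filter and a stricter one, DESeq2 1.42.0, limma 3.58.1 on log2(FPKM + pseudocount), a replicate block and leaving out each replicate.

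The members and gene lists were chosen with earlier results of these data known. Genes named with values were the 8 largest rises and 8 largest falls among changed members without overlap, members with a set role, and up to 2 rises and 2 falls with the smallest p per partner list. The remaining named genes, including receptor and target pairs, were picked after values were seen. Some genes matching the symbol pattern, and some of their partners, are not reported here, though counts over members and lists may include them.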

Additional observations from a re-analysis of the deposited data

How the results depend on the processing

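No F-box gene or partner gene reversed its direction with a call under any alternative. Of the 25 members that changed, 19 kept the call without each single replicate, and 16 kept it in every setting except the 0.01 threshold. Members higher numbered 12 to 15 over the settings, against 14. Members lower numbered 7 by limma on log2(FPKM + 1) without a filter and 6 at an adjusted p under 0.01, and 7 to 11 with 1 replicate left out, against 11. For the SCF core, 1 gene was lower with no low-count filter, by DESeq2 and at 0.01, and 1 to 2 with 1 replicate left out, against 2. For neddylation, 1 gene was higher by limma on log2(FPKM + 1) without a filter, against 3. The cause was not tested for any of these. The number of all genes changed was 4538 at 0.01 and up to 6144, against 5976. Without DMSO replicate 1 it was 5936, against 5190 to 5614 without any other single sample. The difference in counts between 2 replicates, as mean chi-square per gene, was 6.61 and 8.81 for the pairs with DMSO replicate 1. It was 4.35 for DMSO replicates 2 and 3, and 3.71 to 3.93 for the SCR-6920 pairs. The reason for the number of 5936 was not tested. Replicate numbers did not pair the samples (correlations of deviations 0.00663, 0.00497 and 0.0383), and with the number as a replicate block 14 members were higher and 11 lower. RLE and library-size scaling moved the median log2 change of all genes by 0.00193 and -0.0115. Precision followed depth: the median SE was 0.0584 in the 26 members with more counts and 0.124 in the 26 with fewer. Of these members, 17 and 8 changed.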
